A study of Mus musculus with 22 samples.

Results

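Skeletal muscle genes are described here in RNA of whole mouse brain. The set holds 10 genes, Acta1, Actc1, Myl1, Mylpf, Tnnt3, Tnni2, Myog, Ckm, Myh3 and Myh8, taken as every probe that the scanner files name after them. They are 16 of 41174 probes, and the 10 genes stand among 28799 genes and unnamed probes. The groups were 4 animals labelled Agtr2 knockout and 4 control animals at postnatal day 1 (P1), and 8 knockout and 6 control animals at embryonic day 15 (E15). Agtr2 encodes the type 2 receptor for angiotensin II, and the labels give neither the allele nor the strain. The brains were taken whole and extracted from frozen slices, and each of the 22 Agilent arrays (8 at P1, 14 at E15) carried 1 knockout and 1 control animal in the Cy3 and Cy5 channels.

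Skeletal muscle fibres contract when myosin heads pull on actin filaments, and calcium starts this by moving the troponin complex. Fibres form when myoblasts that express myogenic factors fuse, and the first fibres use embryonic and perinatal myosins and cardiac actin before the adult forms take over. The brain itself holds no skeletal muscle, while the head around it does. In RNA of a whole sample, fewer cells of a type and less RNA per cell cannot be told apart.

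Between 62.1% and 95.1% of spots lay well above background in a P1 channel, as the scanner software marks it, and between 68.4% and 92.9% in an E15 channel. Agtr2 itself, the targeted gene, had a log2 knockout over control of 0.11 at P1 (SE 0.08, n = 4, limma adjusted p = 0.712) and -0.39 at E15 (SE 0.31, n = 8, limma adjusted p = 0.808), so its RNA level did not check the labels. The E15 arrays were scanned on 3 days, with replicates 1 to 4 all on the last of these, and all P1 arrays on 1 further day, so that age and scan day cannot be told apart. At E15 the 6 controls served 8 knockout replicates: replicates 1, 4 and 7 and replicates 2, 3 and 8 were linked by shared controls. Of the neural genes, 10 of 10 neuron markers and 7 of 7 neural progenitor markers passed the filter on background at both ages, as did 24962 of all 28799 features at P1 and 24126 at E15, so the count says little about the tissue.

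The upstream sequences of 4 of the genes are shown, and each of the 4 holds a marked site. The capitals mark letters through which muscle regulators are known to act. RefSeq promoters of assembly GRCm38.p6 matched 8 of the 10 genes by symbol; Tnnt3 and Tnni2 had no entry. The 250 bases before the annotated start are given on the gene's own strand. Capitals mark CAGCTG (a form of E-box, the site of Myog and its relatives), the CArG box (the site of serum response factor) and the MEF2 site, each searched on both strands, and no marked stretches overlap.
Acta1, chr8:123894776-123895025, minus strand: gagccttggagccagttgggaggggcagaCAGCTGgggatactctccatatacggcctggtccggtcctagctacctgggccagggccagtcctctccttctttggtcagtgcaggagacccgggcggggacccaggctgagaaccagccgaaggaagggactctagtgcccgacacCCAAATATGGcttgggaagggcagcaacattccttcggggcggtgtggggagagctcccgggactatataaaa
Actc1, chr2:114052876-114053125, minus strand: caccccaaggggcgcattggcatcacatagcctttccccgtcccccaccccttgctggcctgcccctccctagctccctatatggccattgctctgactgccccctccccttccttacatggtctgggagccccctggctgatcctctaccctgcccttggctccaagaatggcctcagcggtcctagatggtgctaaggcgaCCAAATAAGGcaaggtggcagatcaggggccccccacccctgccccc
Mylpf, chr7:127211358-127211607, plus strand: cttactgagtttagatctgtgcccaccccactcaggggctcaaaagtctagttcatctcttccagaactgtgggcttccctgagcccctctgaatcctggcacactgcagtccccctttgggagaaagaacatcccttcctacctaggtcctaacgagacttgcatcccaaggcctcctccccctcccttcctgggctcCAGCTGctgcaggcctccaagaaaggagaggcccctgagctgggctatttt
Myh8, chr11:67276874-67277123, plus strand: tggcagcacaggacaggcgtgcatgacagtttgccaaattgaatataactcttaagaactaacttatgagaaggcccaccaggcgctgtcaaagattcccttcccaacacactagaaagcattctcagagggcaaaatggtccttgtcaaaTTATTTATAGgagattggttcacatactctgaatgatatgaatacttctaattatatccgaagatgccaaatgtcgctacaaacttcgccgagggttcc
CAGCTG stood in 4 of the 8 windows (Acta1, Myl1, Mylpf and Ckm), against 13% of 32851 promoters of the same length, while CACCTG, another form of E-box, stood in 0 of 8, against 17.2%. The CArG box stood in 2 of 8, both actin genes, against 1.47% of all promoters, and the MEF2 site in 1 of 8, that of Myh8, against 2.92%. The MEF2 site was searched as C or T, then TA, 4 letters of A or T, TA, and last A or G. The Myog window holds ctatatttat, which misses this pattern by its last letter only, so the count depends on the pattern. TATAAA, not marked here, stood in 4 of 8, against 12.4%, and in Myh8 it lies on the other strand within the MEF2 site. The Acta1 CArG box begins 73 bases before the start and that of Actc1 47 bases before it. The Myog and Myh3 windows held none of the marked sites. These letters are a description of the windows, and any relation to the levels of the genes was not tested.

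At P1 the muscle genes were low in all 8 animals, while at E15 they were at high levels in a few animals and near the floor of the scale in others. Levels are normalized channel signals in units, which include an offset of 50 that raises low levels and so understates folds over them. Each gene was read by its brightest probe. Both genotypes held high animals: knockout 8 and controls 1, 2 and 5 were high on both of their arrays. With a limit of 2-fold over the P1 median of the gene, chosen after the values were seen, knockout 8 and control 1 passed it with 10 of 10 genes. Control 2 passed it with 9 and control 5 with 6. Knockout 4 passed it with 8 genes and knockout 3 with 7, each on its only array, and knockout 1 with 5. The other 7 E15 animals (knockouts 2, 5, 6 and 7, controls 3, 4 and 6) passed it with 0 to 2 genes. No P1 animal passed it with any gene measured. Mylpf had no level in the P1 animals numbered 2, where its spots were marked as outliers.

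**Figure D1:**
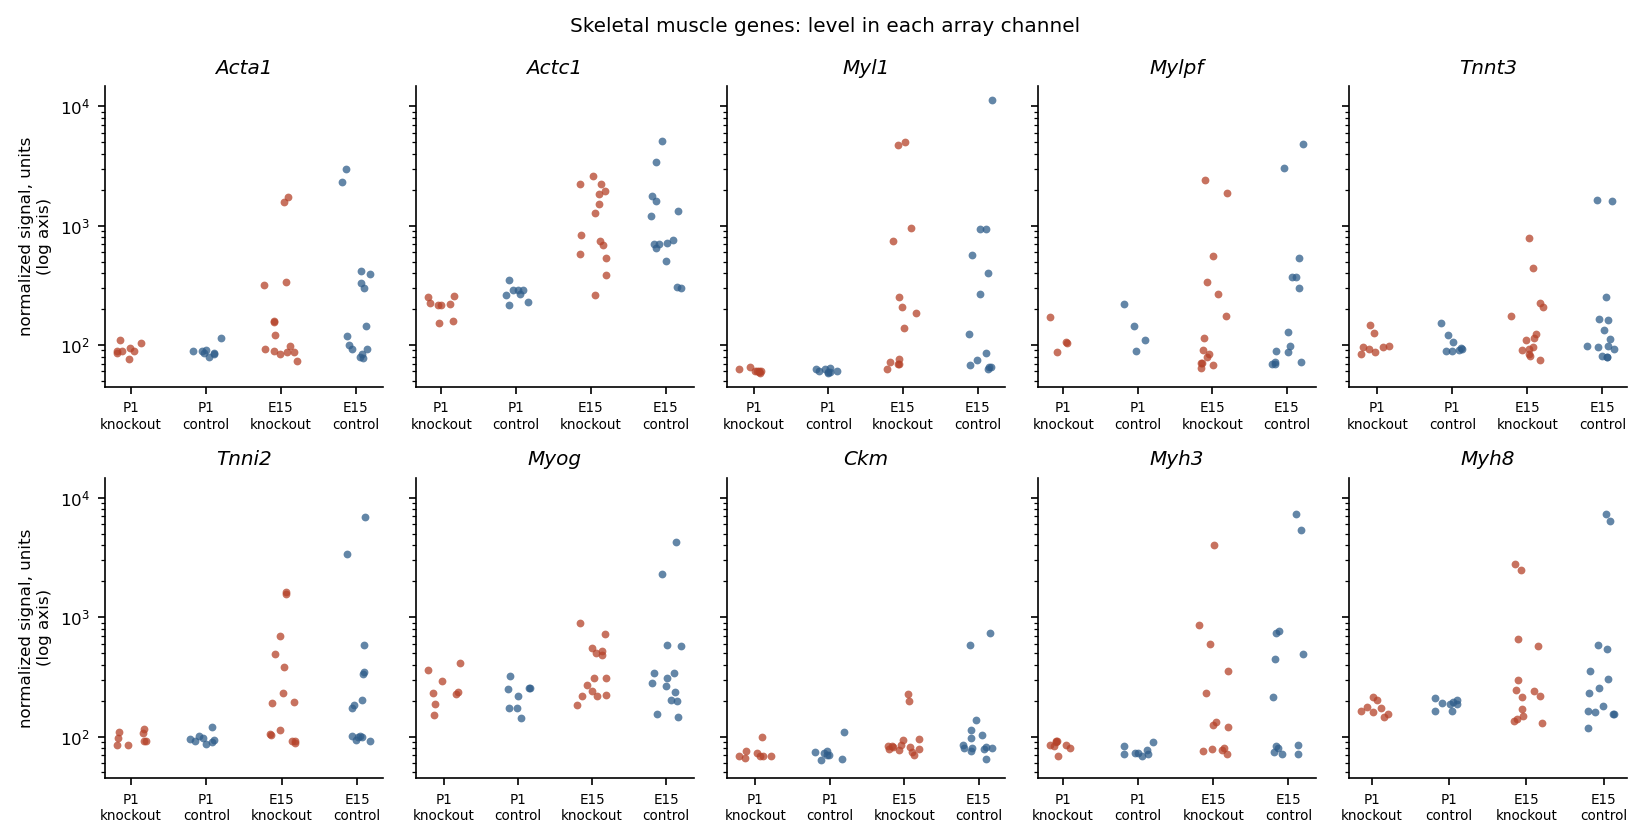
Level of each muscle gene in every array channel, as normalized signal in units on a log axis. Each point is 1 channel, red for knockout and blue for control animals. The P1 channels of each gene vary over a narrower range than its E15 channels, where a few channels of both genotypes stand far above the rest.

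Among the contractile genes of developing fibres, Myh3, the embryonic myosin heavy chain, had a level of 76.0 to 87.8 units in the P1 knockout animals and 70.2 to 80.2 units in the P1 controls. At E15 the lowest, median and highest level were 78.1, 193.5 and 4051 units in the 8 knockout animals and 77.9, 295.5 and 6268 units in the 6 controls. The 2 genotypes overlapped over nearly the whole range, since the highest animals were control 1 and knockout 8, and 3 animals (knockout 7, controls 4 and 6) lay within the P1 range. A second Myh3 probe spanned a log2 range of 6.58 over the E15 animals, beside 6.33 for the probe used.

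Myl1, a fast alkali light chain of myosin, had the widest range of the 10 genes. Its level was 58.7 to 63.0 units in P1 knockout animals and 59.6 to 63.0 units in P1 controls, where it lay well above background in 3 of 8 channels of each genotype. At E15 its lowest, median and highest level were 62.8, 165.0 and 4892 units in the knockout animals and 65.5, 302.9 and 11378 units in the controls. The lowest of these, knockout 1, was not well above background on the array kept, so no fold is given over it. There its signal (the spot's mean minus local background) was 7.48 units, beside control 6. On its other array, beside control 1, it was well above background at 1141 units, so its place as the lowest rests on the array kept. One of the 2 spots of control 1 was marked as an outlier, so its level and that of knockout 1 rest on 1 array each.

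Myh8, the perinatal myosin heavy chain, had signal in every animal: 153.6 to 189.9 units in P1 knockout and 177.9 to 199.4 units in P1 control animals. In E15 animals the lowest, median and highest level were 145.2, 262.0 and 2634 units in the knockouts and 148.7, 267.8 and 6841 units in the controls. Only the brightest of 5 probes named Myh8 varied in this way, with a log2 range of 5.56 over the E15 animals against 0.23 to 0.51 for the other 4. The other 4 had mean log2 intensities of 5.87 to 6.10, near the floor of the scale, against 8.12 for the brightest. They are therefore no check on its range. One of the other 4 is described in the E15 files as an extraocular myosin heavy chain, so the name may cover another gene of the myosin cluster.

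Actc1, the cardiac alpha-actin that early skeletal fibres also use, behaved differently from the other members. Its level was 155.5 to 239.1 units in P1 knockout animals and 249.1 to 304.6 units in P1 controls. At E15 its lowest, median and highest level were 425.8, 1407 and 2607 units in the knockouts and 459.0, 733.3 and 4185 units in the controls, so every one of the 14 E15 animals lay above every P1 animal. Within E15, Actc1 differed with the scan day as well. The median knockout channel had 1904 units on the last day and 632.9 units on the earlier days, and the median control channel had 1690 and 673.7 units. Control 6, in which Myh3 stayed at the floor, had an Actc1 level of 1217 units on the last day and 508.1 and 650.0 units on the day before. Across the 14 E15 animals, the log2 level of Actc1 correlated with the mean of the other members at r = 0.76, while r was between 0.89 and 0.99 for the other 9 genes. The points share arrays, so these r are descriptions only.

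Myog, the myogenic factor myogenin that drives myoblasts to differentiate, was at 208.8 to 323.7 units in P1 knockout animals and 190.5 to 286.7 units in P1 controls. In E15 animals the lowest, median and highest level were 199.4, 404.6 and 807.7 units in the knockouts and 171.2, 284.3 and 3118 units in the controls. Of the E15 animals, 6 of 14 lay above the whole P1 range.

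The genes of the fast and more mature apparatus followed the same animals. Acta1, the skeletal alpha-actin, was at 82.6 to 99.4 units in P1 knockout animals and 84.1 to 101.9 units in P1 controls. The lowest, median and highest E15 level were 80.5, 137.1 and 1650 units in the knockouts and 85.1, 214.1 and 2659 units in the controls. Mylpf, the fast regulatory light chain, reached 2134 units in knockout 8 and 3852 units in control 1, while the lowest E15 levels were 69.5 units in knockouts and 70.0 units in controls. Its P1 levels lay above these lowest levels, at 88.0 to 135.9 units in 3 knockout animals and 88.5 to 156.0 units in 3 controls. Tnni2, the fast inhibitory troponin, reached 1608 and 4821 units in the same 2 animals, and Tnnt3, the fast troponin that holds the complex on tropomyosin, 592.9 and 1634 units. A second Tnnt3 probe spanned a log2 range of 3.94 over the E15 animals, beside 4.25 for the probe used.

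Ckm, the muscle creatine kinase that buffers ATP in mature fibres, had a log2 range of 3.20 over the E15 animals, beside 3.30 for Actc1; with the scanner software's processed signals these were 5.04 and 3.19, so the order of the 2 genes rests on the scale. Its level was 67.3 to 86.8 units in P1 knockout animals and 66.8 to 90.2 units in P1 controls. The lowest, median and highest E15 level were 76.4, 80.7 and 211.9 units in the knockouts and 71.9, 90.7 and 660.2 units in the controls. Only 4 E15 animals lay above the whole P1 range, beside 13 for Myl1 and 11 for Myh3.

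The height of the high animals was unequal between the genes. Over the P1 median, knockout 8 stood 51.4-fold higher for Myh3, on 1 array, and control 1 stood 79.5-fold higher. For Myl1 the ratios of levels were 80.1 in knockout 8 and 186 in control 1, but they are no measured folds, since most P1 channels were not well above background for Myl1 and its P1 level is mainly the offset. For Ckm the same animals stood 3.04-fold and 9.47-fold higher, and for Myog 3.67-fold and 14.2-fold. Acta1, Mylpf, Tnni2 and Myh8 lay between, at 14.4-fold to 19.0-fold in knockout 8 and 30.6-fold to 50.9-fold in control 1. Embryonic and later genes were mixed in this order, with the embryonic Myh3 near the top and the early Actc1 and Myog among the last 4. Folds are measured over each probe's own low level, which was higher for Actc1, Myog and Myh8, so the order is not one of transcript amounts.

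The muscle profile of the 2 highest animals was not proportional. Control 1 exceeded knockout 8 by a log2 difference of 1.95 for Myog and 1.64 for Ckm, but by 0.63 for Myh3, 0.69 for Acta1 and 0.85 for Mylpf. They were on different arrays and scan days, with 1 animal each, so this difference has no replicate check.

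**Figure D2:**
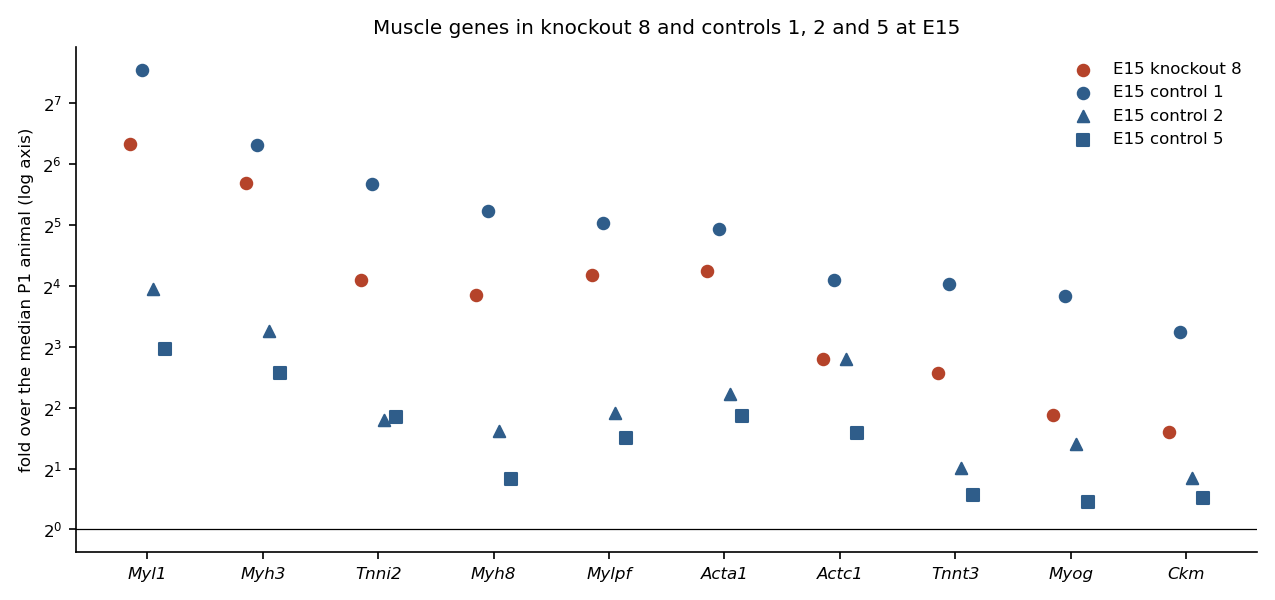
Fold of each muscle gene over the median P1 animal in knockout 8 (red) and controls 1, 2 and 5 (blue) at E15, on a log axis, with the genes ordered by control 1. Knockout 8 and control 1 lead for every gene except Actc1, where control 2 stands beside knockout 8, and controls 2 and 5 stand lower. The Myl1 ratios are over a P1 level near the floor.

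Several animals were hybridized more than once, and the muscle level of some differed between their arrays, along with the animal in the other channel and, in part, with the dye. Here the signal is the spot's mean minus its local background, before normalization. Knockout 1 had a Myh3 signal of 936.3 units on the array it shared with control 1, whose own signal was 7857 units. On its other array, with control 6 at 36.3 units, knockout 1 had 15.4 units. Knockout 2 had 135.9 units beside control 2 at 797.5 units, and 25.3 units beside control 3 at 37.1 units. Control 3, in turn, had 294.7 and 197.7 units on the arrays of knockout 8, which had 4414 and 3908 units, against 37.1 units on the array of knockout 2. In these 3 animals the higher value stood each time beside the higher partner. Knockouts 1 and 2 were in Cy3 on the array with the higher value and in Cy5 on the other, so for them partner and dye cannot be told apart. Control 3 was in Cy3 at both 294.7 units beside knockout 8 and 37.1 units beside knockout 2, but on different scan days. Knockout 7, with 1 partner on 1 scan day, had 78.2 units in Cy3 and 23.7 units in Cy5. Controls 1, 2 and 6 also had 2 partners, and the high controls stayed high: control 1 had 7857 units beside knockout 1 and 7278 units beside knockout 4, and control 2 had 797.5 units beside knockout 2 and 640.6 units beside knockout 3. Control 6 stayed low, with 36.3 units beside knockout 1 and 33.7 and 70.6 units beside knockout 7.

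On the array of control 1 and knockout 1 and the 2 arrays of knockout 8 and control 3, the weaker channel carried a Myh3 signal of 5.06% to 11.9% of the stronger. The median over the 10 genes was 7.05% to 13.1%. Knockout 4 was measured only beside control 1, with 609.0 units for Myh3 against 7278 units, a share of 8.37% that lies in this range. Knockout 3 was measured only beside control 2, with 374.5 against 640.6 units, a share of 58.5%. For knockouts 3 and 4 no array with a low partner exists, so a level of their own cannot be told apart from one that goes with the partner. What links the 2 channels was not tested.

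Repeats beside 1 partner were mostly close. The mean log2 level of the members in control 5 differed by 0.15 between its arrays, and in knockout 6 by 0.21. In knockout 8 the mean log2 level over the P1 medians was 3.62 on both arrays. One of these means held 10 genes and the other 9, without Myh3, whose spot was marked as an outlier. The 2 means of knockout 8 are therefore not over the same genes. Knockout 5 was the exception: its Myh3 signal was 208.2 units in Cy3 on one array and 18.1 units in Cy5 on the other, scanned on another day, while its control 4 had 27.6 and 28.8 units, and the mean log2 level differed by 1.01.

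**Figure D3:**
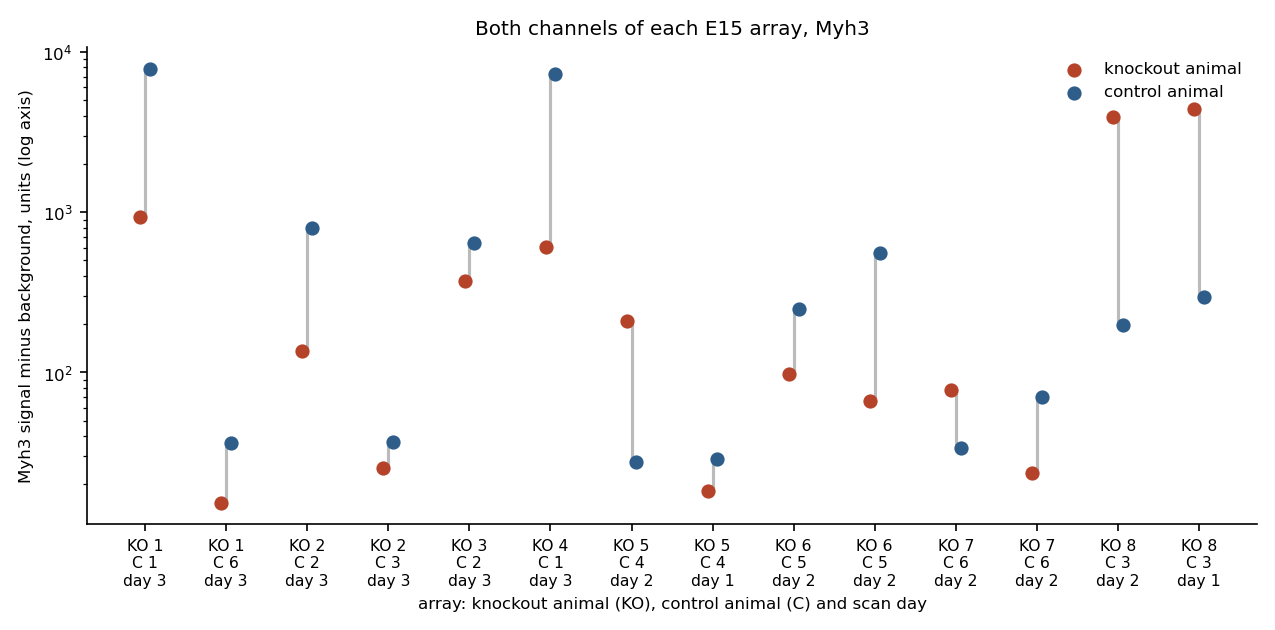
Myh3 signal minus local background in units (log axis) in both channels of the 14 E15 arrays, red for the knockout and blue for the control animal, joined by a line for each array. Knockouts 1 and 2 and control 3 are higher beside a high partner than beside a low one; the dye of knockouts 1 and 2 changed along with the partner.

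Knockout over control was tested over the 8 E15 replicates, and none of the 10 muscle genes passed an adjusted p of 0.05. Across all 24126 features tested, 0% passed by limma, while 6.42% had an unadjusted p under 0.05, and of the 10 muscle genes 0 had one. The mean log2 ratio was below 0 for 9 of the 10 genes, against 53.6% of all features, with a median of -0.49 over the genes and -0.0057 over all features. The means carried wide errors: Myh3 -0.65 (SE 0.77, 95% interval -2.40 to 1.09, limma adjusted p = 0.860), Myl1 -0.18 (SE 0.80, interval -2.01 to 1.65, adjusted p = 0.971) and Actc1 0.0065 (SE 0.29, interval -0.65 to 0.66, adjusted p = 0.996). Adjusted p values over the 10 genes ran from 0.810 (Ckm) to 0.996 (Actc1).

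The replicates pointed in opposite directions. Their median log2 ratios over the 10 genes were -1.31, -0.72, -0.76, -3.64, 0.24, -0.65, 0.06 and 3.27 for replicates 1 to 8, while the medians of all features ran from -0.023 to 0.018. In replicate 4, measured against control 1, every gene was below 0, and in replicate 8 every gene was above 0. For Myh3 the replicate values were -1.33, -1.23, -1.47, -3.97, 0.72, -1.87, -0.0012 and 3.89. Replicates 1 and 2 each average 2 arrays with different controls, which differed strongly. Replicate 1 was at -0.03 beside control 6 and -2.63 beside control 1. Replicate 2 was at 0.14 beside control 3 and -2.60 beside control 2. Of the Myh3 values, those of replicates 3, 4 and 8 rest on 1 array each, with the mean dye effect of the probe subtracted. The same holds for Myl1 in replicate 1. For Myh3 this dye effect includes replicates 1 and 2, so it holds differences between control animals as well as between dyes. Without the subtraction the Myh3 values were -1.12, -3.63 and 4.24 in replicates 3, 4 and 8.

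The mean depended on single animals at both ends. Replicate 8, at 3.89 for Myh3, raised it, and with 1 replicate left out in turn the Myh3 mean ran from -1.28 to -0.216. For most of the genes the sign of the mean also turned without 1 control animal, with replicate 8 still included. Without the 2 arrays of control 1, an alternative added after the data were seen, the mean log2 ratio turned above 0 for 8 of 10 genes, to 0.304 for Myl1, 0.279 for Tnni2, 0.217 for Tnnt3 and Myh8, 0.215 for Myog, 0.0534 for Mylpf, 0.0341 for Myh3 and 0.0334 for Ckm. Within scan days the signs also split: over replicates 1 to 4, all on the last day, the 10 means ran from -2.00 (Myh3) to -0.28 (Actc1), and over replicates 5 to 8 from 0.32 (Actc1) to 1.09 (Myl1). Control 1 was hybridized only on the last day and knockout 8 only on the earlier days.

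**Figure D4:**
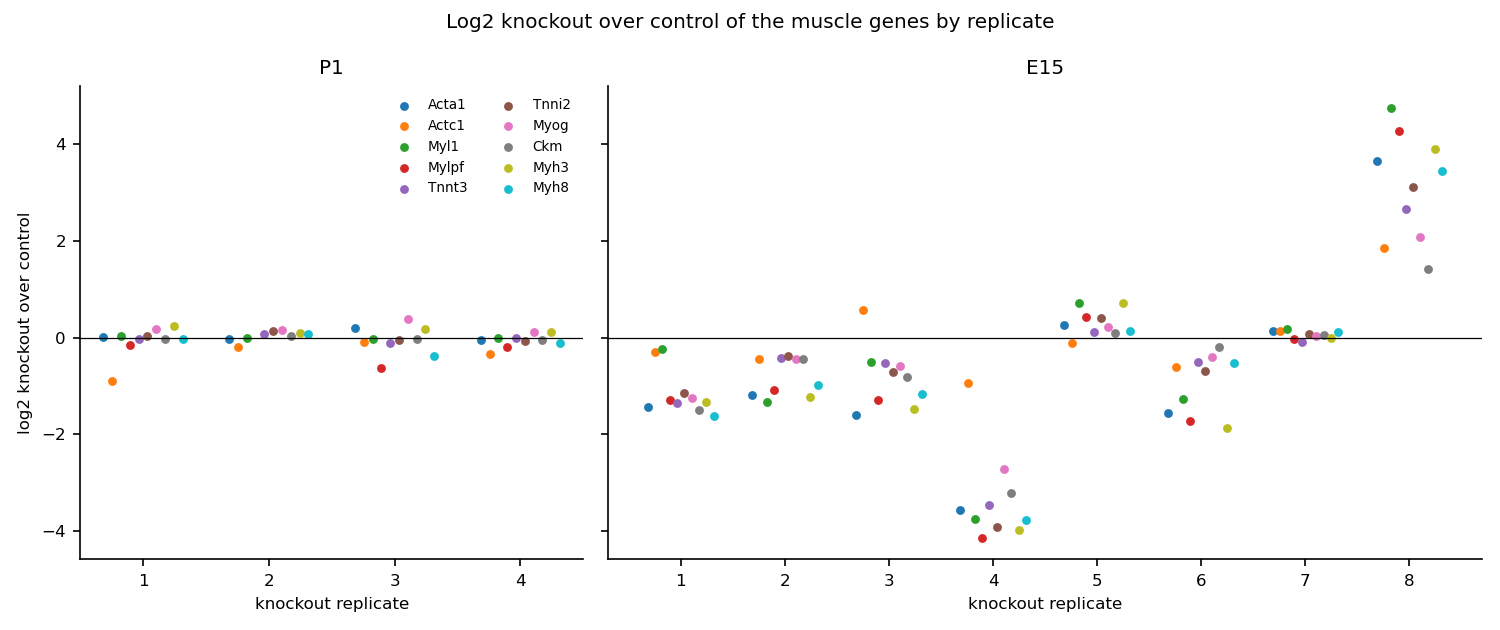
Log2 knockout over control of each muscle gene by knockout replicate, with P1 on the left and E15 on the right. At P1 most values lie close to 0, lowest for Actc1 in replicate 1 (-0.90), and at E15 the genes of a replicate move together, lowest in replicate 4 and highest in replicate 8.

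At P1, 9 of the 10 genes passed the filter and none passed the adjusted p of 0.05, as for 0% of 24242 features, of which 9.52% had an unadjusted p under 0.05. Of the 9 genes, 4 had one (Actc1, Mylpf, Myog and Myh3), and 5 had a mean below 0, against 45.2% of features. Myl1 did not pass the filter on background. The replicate values were small: their medians over the genes were -0.02, 0.08, -0.05 and -0.06. Actc1 had log2 ratios of -0.90, -0.19, -0.08 and -0.35 (mean -0.38, SE 0.14, limma adjusted p = 0.510), below 0 in 4 of 4 replicates. With the knockout in Cy3, its arrays of replicates 2 and 3 were above 0, at 0.04 and 0.15. Myog, at 0.18, 0.16, 0.39 and 0.11, and Myh3, at 0.23, 0.10, 0.18 and 0.11, lay above 0 in 4 of 4 (means 0.21, SE 0.06, and 0.16, SE 0.04, both limma adjusted p = 0.464). Mylpf had values of -0.15, -0.64 and -0.20 in replicates 1, 3 and 4, the first 2 from 1 array each, and none in replicate 2, where its spots were marked as outliers. The remaining 5 genes had means between -0.11 (Myh8) and 0.04 (Acta1). The difference of the knockout effect between the ages passed the threshold for none of the 9 genes, against 0.00873% of 22918 features; 0 of the 9 had an unadjusted p under 0.05, against 5.25%.

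P1 was compared with E15 within each genotype on the level per animal, with each animal counted as independent. The levels of some E15 animals differed with their partner, as given above, and the SE and p values do not carry this. All 10 genes had lower means at P1, and Actc1 alone passed the test. In knockout animals its mean log2 level was 7.71 ± 0.29 at P1 (SD, n = 4) and 10.13 ± 1.03 at E15 (SD, n = 8), a difference of -2.42 (SE 0.48, limma adjusted p = 0.00283). In controls the mean was 8.09 ± 0.15 at P1 (SD, n = 4), against E15 levels of 459.0 to 4185 units (SD of the log2 level 1.17, n = 6), a difference of -1.91 (SE 0.52, limma adjusted p = 0.0147). Of 25495 features tested, 28.2% passed in knockout animals and 38.1% in controls, with 15.1% and 22.6% lower at P1. An unadjusted p under 0.05 was found for 3 of the 10 genes in knockouts, against 40.2% of features, and for 1 of 10 in controls, against 47.4%. The Actc1 difference was smaller against the E15 arrays of the first 2 scan days, -1.71 in knockouts and -1.01 in controls, than against those of the last day, -3.14 and -2.75.

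The other 9 genes had lower means at P1 in both genotypes without passing the test. Their log2 differences in knockout animals ran from -2.22 (Myl1, SE 1.01) to -0.33 (Ckm, SE 0.24), and in controls from -2.67 (Myl1, SE 1.24) to -0.76 (Ckm, SE 0.54). With the scanner software's processed signals, which carry no offset, Myl1 also passed, at -4.14 in knockouts (limma adjusted p = 0.0155) and -4.52 in controls (limma adjusted p = 0.0148), and Tnni2 in knockouts at -1.99 (limma adjusted p = 0.0411). At P1 Myl1 was well above background in only 3 of 8 channels of each genotype. The size of its differences therefore rests on a P1 level near background and is not measured. The spread lay in the E15 animals: the SD of the Myl1 log2 level was 0.04 in both genotypes at P1, against 2.21 in knockouts and 2.82 in controls at E15.

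Other genes of skeletal muscle, in 5 lists with 87 genes tested at E15, also varied between the E15 animals. A range of over 2-fold was found across the P1 animals for 6 of the 87, against 1668 of the 24126 features, and across the E15 animals for 57 of the 87, against 7432. No gene of the lists passed the knockout test at either age. At E15 78 of the 87 had a mean below 0, with a median of -0.18, against 53.6% and -0.0057 over all features. These values include control 1, without which 8 of the 10 members turned above 0.

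Among other sarcomere genes (42 tested, 32 with a range over 2-fold), the fast troponin C gene Tnnc2 reached 3841 units in knockout 8 and 12613 in control 1, over a lowest E15 level of 132.8. Myl4, a light chain of embryonic and atrial muscle, reached 795.3 and 2624 units, and the slow light chain gene Myl3 1196 and 2170 units. Among membrane and calcium genes (19 tested, 10 over 2-fold), Sln, which restrains the calcium pump, reached 1327 and 4393 units, Cav3, a caveolin of the fibre membrane, 489.9 and 1518 units, and Stac3, a part of excitation-contraction coupling, 272.1 and 485.4 units. Among metabolic genes (11 tested, 6 over 2-fold), the muscle enolase gene Eno3 reached 731.0 and 1398 units, Pgam2 413.6 and 799.0 units, and Cox6a2 583.3 and 602.0 units.

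Of the acetylcholine receptor genes, 3 of 6 had a range over 2-fold. Chrng, the fetal gamma subunit, was at 230.3 units in knockout 8 and 487.2 units in control 1, over a lowest E15 level of 66.9, and its log2 level correlated with the mean of the members at r = 0.92 over the 14 E15 animals. Chrna1, the alpha subunit, was at 271.9 and 365.5 units (r = 0.94). Chrne, the epsilon subunit of the adult receptor, was at 152.1 units in knockout 8 and 330.6 units in control 1, with r = 0.12; knockout 8 was its lowest E15 animal and control 2, at 361.9 units, its highest. No test of the difference between the subunits was run. Of the adult fast myosins, chosen here after their values were seen, Myh4 was at 590.2 and 1009 units in the same 2 animals, Myh1 at 133.9 and 229.1 units, and Myh2 at 113.5 and 150.4 units.

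Of the regulators, 9 were tested and 6 had a range over 2-fold. Myod1, a myogenic factor that commits myoblasts, was at 314.7 units in knockout 8 and 1520 units in control 1, over a lowest level of 263.4, with r = 0.43. Mef2c, also a neuronal transcription factor, was at 418.6 and 319.5 units (r = 0.50). Mef2c reached 2030 units in a P1 animal, above every E15 animal.

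The features most like the members over the 14 E15 animals were Sln (r = 0.99), Myom2 (0.99), Myl3 (0.98), Tnnt2 (0.98), Myl4 (0.97), Tnnt1 (0.97), Mybpc1 (0.97), Tnnc2 (0.97), Cav3 (0.97) and Itgb1bp2 (0.97). The lists held 9 of these 10, all but Itgb1bp2. Over the 8 P1 animals they were Fam181b (0.97), Dyrk1b (0.96), Sfrp2 (0.96), Gulp1 (0.95) and Ica1l (0.95), none of which the muscle lists held. The 2 rankings rest on few animals that share arrays.

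Genes of other tissues of the head were also high in the 2 animals with the highest muscle levels, by unequal amounts. Relative to the median E15 animal, the median of 13 connective tissue and meningeal genes was higher by 2.65 (log2) in knockout 8, 1.96 in control 1, 1.00 in control 2 and 0.33 in control 5. In other animals the lists parted: knockouts 4, 3 and 1 had muscle medians of 1.13, 0.79 and 0.35 but connective tissue medians of -0.17, -0.31 and -0.24, and knockout 7 had -0.72 for muscle and 0.32 for connective tissue. For 14 bone and cartilage genes it was 1.85 in knockout 8 and 0.56 in control 1. For 11 skin genes it was 0.22 in knockout 8 and 1.88 in control 1. Col1a1, a main collagen of connective tissue and bone, had 17742 units in knockout 8 and 20507 in control 1, and Col1a2 12678 and 13410 units. The cartilage collagen gene Col2a1 was at 4407 and 2684 units and the bone gene Ibsp at 613.1 and 504.0 units. The keratin genes Krt15, at 407.1 and 2761 units, and Krt5, at 306.6 and 2552 units, were the most unequal of those named. The median of the 10 neuron markers was -0.13 in knockout 8 and -0.42 in control 1.

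Genes of heart, smooth muscle and blood were read in the same 2 animals. The median of 10 heart genes was -0.0024 in knockout 8 and 0.22 in control 1, and 3 of the 10 had a range over 2-fold, among them Myl3, which is also on the sarcomere list, and Nkx2-5, at 111.7 and 390.9 units. The median of 8 smooth muscle genes was 0.35 and 0.55. Tagln was at 502.2 and 899.2 units, and Des, the intermediate filament gene of all muscle types that the sarcomere list shares, at 184.8 and 220.9 units. For 5 blood genes the median was -0.05 and -0.29, with Hbb-y at 1165 and 369.0 units and Hba-a1 at 6886 and 4229 units. The part of these tissues in the muscle levels was not tested.

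**Figure D5:**
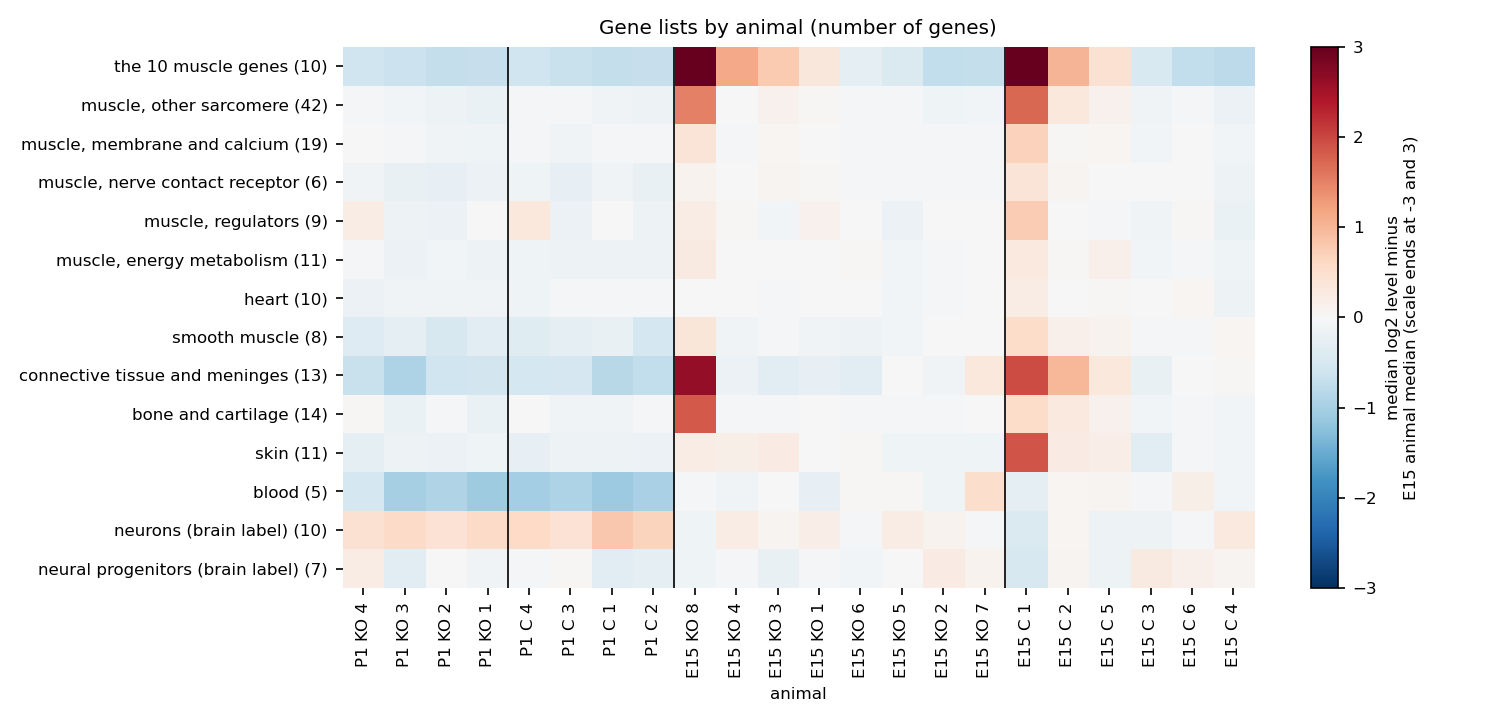
Median log2 level of each gene list in each animal, relative to the median E15 animal, with the number of genes in brackets and animals ordered within each group by the level of the 10 muscle genes. Knockout 8 is high for muscle, connective tissue and bone and cartilage, and control 1 for muscle, connective tissue and skin.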

How the data were processed

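RNA of whole brain was measured on 22 two-colour arrays. The deposited files of each array give, per the file headers, the spot's mean intensity and local background, not normalized, and log10 ratios of red over green; the deposited matrix matched these log10 ratios within 0.005. The files came from Agilent Feature Extraction 8.1.1.1 at E15 and 8.5.1.1 at P1. Intensities were corrected by normexp (offset 50) and within-array loess, control spots at weight 0 and outlier spots missing, in limma 3.58.1 (R 4.3.3, statmod 1.5.0, and data.table, version 1.17.8). Log2 ratios were averaged over dye orientations. A value with 1 orientation had the probe's mean dye effect subtracted, or was missing. At E15 this mean included replicates 1 and 2, whose 2 orientations had different controls. P1 probes were named through the E15 files, whose names were updated with a GRCm38.p6 table. A gene was its brightest probe, tested if well above background in 50% of the channels of the age. Channel levels followed Aquantile and were averaged per animal. E15 took control-sharing sets as a random block (correlation 0.0595). P1 controls are taken as 1 animal for each knockout replicate, as the design states. P values were adjusted by Benjamini-Hochberg. All 10 members were named, of each muscle list the 3 genes of largest E15 range, of other lists 2, and the 10 (E15) or 5 (P1) features most like the members; 1 gene that this rule names is not reported here. Members and lists were chosen with earlier results of these data known. Alternatives covered background, normalization, filter, blocks and left-out animals. The fits were tested on simulated data. Figures used matplotlib 3.10.9 (Python 3.11.15, pandas 2.3.3).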

Additional observations from a re-analysis of the deposited data

Results flagged for a closer look

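Within a group of 4 to 10 animals, the highest or lowest level was set against the nearest other animal by Dixon's ratio, on the log2 scale. Of 57 groups of values, 11 were flagged, and chance flags about 1 in 20 such groups. Values of 1 animal recur, since the genes were read in the same RNA. At E15 knockout 8 stood apart from the other 7 knockouts for Acta1 (1650 units), Mylpf (2134 units), Tnnt3 (592.9 units) and Ckm (211.9 units). Control 1 stood apart from the other 5 E15 controls for Tnnt3 (1634 units), Tnni2 (4821 units), Ckm (660.2 units) and Myh8 (6841 units). At P1 the flagged values differed little from the others in size: Myh3 was low in knockout 4 (76.0 units), Acta1 was high in control 4 (101.9 units) and Tnni2 was high in control 3 (106.2 units). No log2 ratio of knockout over control was flagged at either age.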

How the results depend on the processing

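No muscle gene passed the knockout test at either age, or the test of the difference between ages, under any alternative run. Of 1023 values under alternatives, 969 kept direction and side of the threshold and 40 turned in sign. Of the 40, 27 lay outside the settings that left out each animal or replicate in turn. These 27 include the values without the 2 arrays of control 1, a setting that also leaves out an animal. The cause was not tested. Without the 2 arrays of control 1, the E15 ratios turned for Myl1 (0.304), Mylpf (0.0534), Tnnt3 (0.217), Tnni2 (0.279), Myog (0.215), Ckm (0.0334), Myh3 (0.0341) and Myh8 (0.217), and the difference P1 minus E15 for Mylpf (-0.373), Tnnt3 (-0.222), Tnni2 (-0.266), Myog (-0.00389), Ckm (-0.0522) and Myh8 (-0.324). With the 6 replicates of both orientations, E15 ratios turned for Myl1 (0.425), Mylpf (0.0523), Tnnt3 (0.0504), Tnni2 (0.208), Myog (0.0339) and Myh8 (0.08). Small values also turned: Actc1 at E15 (-0.00374) and Tnni2 at P1 (-0.00188) with an offset of 16, Tnni2 at P1 (-0.038) with processed signals and with deposited log10 ratios, Tnnt3 at P1 (0.0304) with the mean of all probes, and Mylpf at P1 (0.0115) with outlier spots kept. Mylpf at P1 over E15 in controls was 0.0289 with scan days 1 and 2 only.

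Leaving out 1 animal or replicate in turn, E15 ratios ran from -0.859 to 0.287 for Myl1, -0.871 to 0.0656 for Tnni2 and -0.244 to 0.121 for Actc1. P1 ratios ran from -0.0172 to 0.0643 for Acta1, -0.0335 to 0.0361 for Tnni2 and -0.043 to 0.0177 for Tnnt3. Differences ran from -0.00319 to 0.954 for Myh8, -0.176 to 0.937 for Mylpf and -0.0534 to 0.872 for Tnni2. Actc1 fell between the ages under every alternative. The number of muscle genes called at P1 over E15 changed to 3 in knockouts and 2 in controls with processed signals, and to 4 in knockouts with scan day 3 only. The calls with processed signals include Myl1, whose P1 level was near background. Scan day 3 held knockouts 1 to 4. The levels of knockouts 1 and 2 differed with the partner, and knockouts 3 and 4 were measured only beside high controls. With processed signals the log2 range over E15 animals was wider for Myl1 (9.99), Mylpf (7.74), Tnnt3 (5.82), Ckm (5.04) and Myh3 (8.56).

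The replicate numbers did not pair the samples, since correlations of same-numbered deviations ran from -0.16 to 0.21. With a replicate block, 0 muscle genes passed for the difference and 1, Actc1, at P1 over E15 in each genotype; over all features 7087 were called in knockouts and 9909 in controls, against 7195 and 9712. Signals near the floor limit the low levels, and the number of arrays limits the precision.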
